A study of Mus musculus with 24 samples.

Results

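Unstimulated bone marrow-derived macrophages labelled as Pparg knockout were compared with unstimulated wild-type macrophages over 11280 of the 23420 genes of the series. A gene was a member if its averaged value reached 1 CPM (counts scaled by library size) in the KO_ctrl_0h or the WT_ctrl_0h column. Both groups came from male C57BL/6 mice aged 3 months, and their marrow cells were differentiated for 6 days with M-CSF, the growth factor of the macrophage lineage. Neither group received IL-4 in the first 24 h. Both were then washed, kept in differentiation medium for another 24 h and collected without a 3 h IL-4 exposure. The groups hold 2 samples each, of 24 samples in the whole series, and differ in the labelled Pparg genotype. The labels name neither the deleted part of Pparg nor a transgene. Nothing in them tells whether samples came from separate animals. The p-values therefore measure only the spread between samples of a group, shared over the 16 libraries that were fitted together.

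PPARγ, the product of Pparg, is a nuclear receptor that binds DNA as a dimer with a retinoid X receptor (RXR). In macrophages it is known as a ligand-regulated activator of genes of lipid uptake, lipid storage and fatty acid binding. It is also known to respond to IL-4, and here no IL-4 was given, so the comparison shows the resting state of the cells. As cells were measured in bulk, fewer cells of a type and less RNA per cell cannot be told apart.

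The main measurements were these. Lyz2, the macrophage lysozyme gene, was nearly absent from knockout-labelled cells, while Pparg RNA itself was at a similar level in both genotypes. Htatip2, Vcam1, Gdf3, Axl, Nav2, Rnf144b and Plxdc2 fell. Saa3, Plxnd1, Folr2, Mfge8, Hebp1 and Ccl6 rose. Of these genes, Axl, Nav2, Hebp1 and Ccl6 did not pass with limma-voom, and Axl and Nav2 also missed without group weights. Plxnd1 could not be fitted with counting kind as a term. Among lipid genes, Angptl4 and Mgll fell and Pltp rose, though none of these calls held in every fit. The lipid genes Cd36, Lpl and Plin2 differed by at most 0.19 on the log2 scale and did not pass the test.

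Values are CPM, which do not correct for transcript length, so levels are compared between samples and not between genes. Each deposited column is the mean of 2 libraries, and the whole read counts of both were recovered from it. Within each group, one library is named deeper and the other shallower, after their read totals. The knockout-labelled libraries held 10876434 and 8506652 reads in genes, against 9502841 and 9007264 in the wild-type libraries, and 3 reads, the limit that a count of 0 allows, corresponded to 0.274 to 0.350 CPM. Differences are knockout-labelled minus wild type on the scale of log2(CPM + 1), with standard errors (SE) and Benjamini-Hochberg adjusted p from limma over all 11280 genes, and "rose" and "fell" stand for an adjusted p under 0.05. The pseudocount understates the change of low genes.

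Libraries of the series were counted in 2 ways. In one kind of library, called low, genes that share sequence with other genes kept few reads, and in the other kind, called high, they kept them. Both knockout-labelled libraries were of the low kind and both wild-type libraries of the high kind, so genotype and counting kind cannot be told apart from these 4 libraries alone. Entpd4 shows the size of the difference, with 0 and 0.117 CPM in knockout-labelled libraries and 64.6 and 72.6 CPM in wild-type libraries. Within 4 other groups, each of which mixes the kinds, Entpd4 averaged 5.67 lower on the log2 scale in the low library, where Ppia averaged 6.26 lower and Ubb 6.35 lower. The same is true of Gm1821, Gm5148 and C330021F23Rik, which read 0 to 0.583 CPM in knockout-labelled libraries and 91.2 to 370.2 CPM in wild-type libraries.

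A gene was therefore called counting-sensitive if at least 50% of its sequence words occurred in other genes, or if the low and high libraries of those 4 mixed groups differed by at least 1.5-fold on average. This held for 617 of the 11280 genes, and they are set apart below, since their differences are not read as differences between genotypes. Their median difference was -1.39, against a median of -1.36 between the kinds in the mixed groups, and 88.2% of them (544 genes) would have passed as lower. The scatter of genotype difference against counting difference shows these genes along a diagonal, while Htatip2, Vcam1, Gdf3, Axl, Saa3 and Plxnd1 stand off it.

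**Figure D1:**
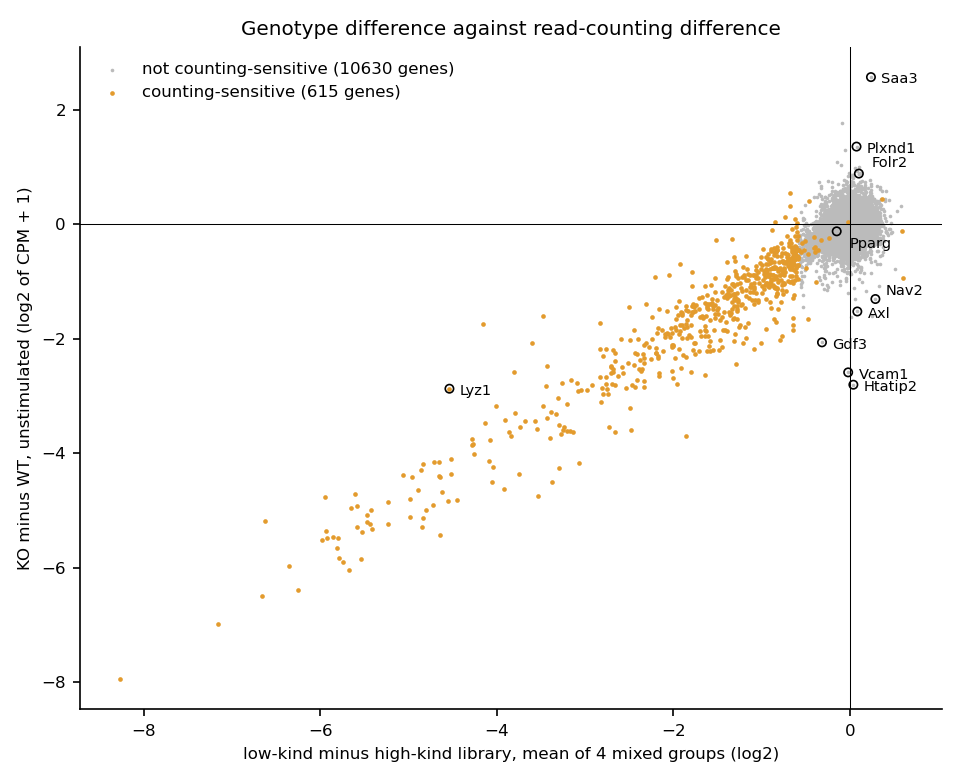
Difference between knockout-labelled and wild-type unstimulated cells (vertical, log2 of CPM + 1) against the difference between low-kind and high-kind libraries averaged over 4 mixed groups outside the comparison (horizontal, log2), 1 point per gene, without the 35 genes that have no value on the horizontal axis. Counting-sensitive genes (orange) fall along a diagonal, with Lyz1 among them, and the circled Htatip2 (-2.80), Vcam1 (-2.58) and Saa3 (2.57) lie near 0 on the horizontal axis.

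Pparg, on chromosome 6 (115360879 to 115490404, mm10 coordinates from RefSeq), read 22.3 and 19.9 CPM in knockout-labelled libraries and 24.2 and 21.9 CPM in wild-type libraries. The groups overlap, and the difference was -0.12 (SE 0.13, limma adjusted p = 0.56). Since the deleted part is not named in the labels, reads over the whole gene do not test the knockout, and the cells are called knockout-labelled here.

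Lyz2 encodes lysozyme M, an antibacterial enzyme made in quantity by macrophages, and its locus on chromosome 10 is widely used to express Cre recombinase in myeloid cells. It read 42.6 and 40.9 CPM in knockout-labelled libraries, against an authors' mean of 30727 CPM in wild-type cells, whose 2 libraries could not be separated for this gene. The difference was -9.49 (SE 0.25, limma adjusted p = 2.5e-09), and the ratio of the means was 736. Knockout-labelled cells of the other 3 conditions had means of 21.2, 39.2 and 14.5 CPM, against 24471, 27042 and 21966 CPM in their wild-type counterparts. Cells with no knockout label that were given GW9662, a PPARγ antagonist, averaged 21451 CPM, and both of their libraries were of the low kind. The labels do not say how the knockout was made.

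Lyz1, the neighbouring lysozyme gene with a closely related sequence, read 346 and 350 CPM in knockout-labelled libraries and 2548 and 2557 CPM in wild-type libraries. It is counting-sensitive, and a wild-type library of the low kind, from cells pretreated with IL-4 and washed, read only 39.1 CPM. Against that library, the 2 knockout-labelled libraries of the same condition were higher, at 264 CPM each. Lyz1 thus lies lower or higher in knockout-labelled cells depending on the libraries compared, and as the lysozyme genes share reads, its level is uncertain.

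Both groups carried Y-linked transcripts, as their label male requires. Ddx3y, an RNA helicase gene on the Y chromosome, fell, with 29.8 and 30.2 CPM in knockout-labelled libraries and 59.1 and 63.7 CPM in wild-type libraries (-1.01, SE 0.13, limma adjusted p = 0.00033). It is among the 15 lowest genes described below. Ddx3y did not pass in limma with counting kind as a term (adjusted p = 0.14) or without group weights (0.10), nor in limma-voom (0.14). Uty also fell (-0.58, adjusted p = 0.0044, and up to 0.10 with 1 library left out), while Kdm5d (-0.23, adjusted p = 0.29) and Eif2s3y (-0.31, adjusted p = 0.12) did not pass in limma. The cells were macrophages by their RNA. Csf1r, the M-CSF receptor gene, read 5224 and 5074 CPM in knockout-labelled libraries and 4197 and 4907 CPM in wild-type libraries. Emr1, which encodes the surface marker F4/80, read 4636 and 4634 CPM in knockout-labelled libraries and 3757 and 3646 CPM in wild-type libraries.

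Of all genes tested, 699 (6.2%) rose and 1059 (9.39%) fell. Outside the counting-sensitive genes, 697 of 10663 rose (6.54%) and 515 fell (4.83%), a split that became 499 and 569 when libraries were rescaled by the median ratio. Most of these changes were small, with a median size of 0.31 among those that rose and 0.45 among those that fell, and 70 and 129 of them exceeded 1.5-fold. In the authors' means, 8 genes that are not counting-sensitive were more than 2-fold higher (0.075%) and 25 more than 2-fold lower (0.234%). Over all genes these counts were 8 and 431, and 406 of the 431 were counting-sensitive.

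The number of genes that passed depended on the model. With counting kind as a term, limma called 14 of 10376 genes (0.135%), 6 higher and 8 lower. Among the 16 libraries of that fit a single wild-type one is of the low kind, from cells pretreated with IL-4 and washed, so the term rests on the 2 libraries of that group. With limma-voom on the recovered counts it called 20 of 10663 (0.188%), 12 higher and 8 lower. Htatip2, Vcam1, Gdf3, Rnf144b, Plxdc2, Saa3, Folr2 and Mfge8 passed in all of these fits. Of the 697 genes that rose, 606 of the 608 that could be fitted with the kind term kept a positive sign, and of the 515 that fell, 484 of 506 kept a negative one. These genes were chosen by the same difference, and genes with a large counting difference had been set apart. Both favour a kept sign, so these counts are no separate support. The same counts were not made for genes that did not pass.

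The knockout-labelled libraries of that condition can be set directly against this low-kind wild-type library, the same one on which the kind term rests. Against it, 14 of 14 of the lowest genes described next were lower in knockout-labelled cells, and 15 of 15 of the highest genes were higher. Of all genes that rose 630 of 678 were higher there, and of those that fell 461 of 512 were lower. Among genes that did not pass, 3175 of 5107 with a positive and 3050 of 4325 with a negative difference also kept their sign. These cells had seen IL-4, and 1 library allows no test.

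Among the genes that fell, Htatip2 lost most after Lyz2. It lies on chromosome 7 (49759045 to 49774000) and encodes an oxidoreductase-like protein known as a tumour suppressor. Knockout-labelled libraries read 9.95 and 8.16 CPM, against 70.4 and 67.1 CPM in wild-type libraries. The groups are far apart, and the difference was -2.80 (SE 0.12, limma adjusted p = 2.5e-09), or 6.97-fold lower on that scale. In the low-kind wild-type library of pretreated cells Htatip2 read 63.9 CPM.

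Vcam1 encodes a cell adhesion molecule that binds integrins on leukocytes. It read 4.20 and 3.50 CPM in knockout-labelled libraries and 29.1 and 26.9 CPM in wild-type libraries (-2.58, SE 0.22, limma adjusted p = 1.1e-05). Vcam1 is also made by stromal cells, and the other fibroblast and stroma markers moved with it. Over the 20 others that are not counting-sensitive, of which 4 reached 1 CPM, the summed level was 5.48 and 4.90 CPM in knockout-labelled libraries and 13.9 and 15.3 CPM in wild-type libraries. Col1a1 and Col1a2, the chains of type I collagen, fell (-1.61 each, limma adjusted p = 0.031 and 0.046, and up to 0.21 and 0.22 with 1 library left out), Bgn (-1.07) and Tagln (-0.14) did not pass, and Lum was at 0. Whether stromal cells contribute to the Vcam1 reads was not tested.

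Gdf3, a secreted ligand of the TGF-β family, read 2.56 and 3.15 CPM in knockout-labelled libraries and 14.08 and 16.01 CPM in wild-type libraries (-2.06, SE 0.20, limma adjusted p = 4.0e-05). Axl encodes a receptor tyrosine kinase that binds Gas6 and takes part in the uptake of dying cells. It had 22.0 and 20.6 CPM in knockout-labelled libraries and 58.1 and 68.3 CPM in wild-type libraries (-1.52, SE 0.15, limma adjusted p = 4.3e-05). Neither gene's libraries overlapped between the groups, which their choice by difference favours.

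Nav2, a cytoskeletal navigator gene, read 28.57 and 29.96 CPM in knockout-labelled libraries and 72.0 and 75.4 CPM in wild-type libraries (-1.30, SE 0.13). Rnf144b, an E3 ubiquitin ligase gene, read 35.0 and 31.6 CPM in knockout-labelled libraries and 73.0 and 78.9 CPM in wild-type libraries (-1.17, SE 0.10). Plxdc2, a membrane protein with a plexin-like domain, is named because it passed in the main fit, with the kind term and with limma-voom. It had 23.3 and 26.2 CPM in knockout-labelled libraries and 45.9 and 45.2 CPM in wild-type libraries (-0.86, SE 0.09). All 3 passed with the kind term (limma adjusted p = 0.0078, 0.00024 and 0.026). Axl (0.31) and Nav2 (0.12) did not reach an adjusted p under 0.05 with limma-voom. Without group weights they did not pass in limma either (adjusted p = 0.16 and 0.13).

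The rest of the 15 lowest genes, apart from Ddx3y given above, fell by about 2-fold. Sh2d1b1, an adaptor of SLAM-family receptors, differed by -1.13, Ltf, the granule protein lactoferrin, by -1.06, Tulp4 by -1.04 and 9130019O22Rik by -1.01. Ccnb1, the mitotic cyclin B1, differed by -0.98, the transcription factor gene Runx2 by -0.95 and the zinc finger gene Etohi1 by -0.91. Adjusted p in limma ran from 0.0008 to 0.0057 for these 7, and none passed with the kind term, in which Ccnb1 was at -0.18. Without the deeper wild-type library Ccnb1 had an adjusted p of 0.057, and without the shallower one Etohi1 had 0.060. In the mixed groups, low libraries read Tulp4, 9130019O22Rik and Ccnb1 0.55 to 0.56 lower than high ones, just inside the limit of 0.585 used for counting-sensitive genes. A share of the difference of these 3 can thus not be told apart from counting kind.

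**Figure D2:**
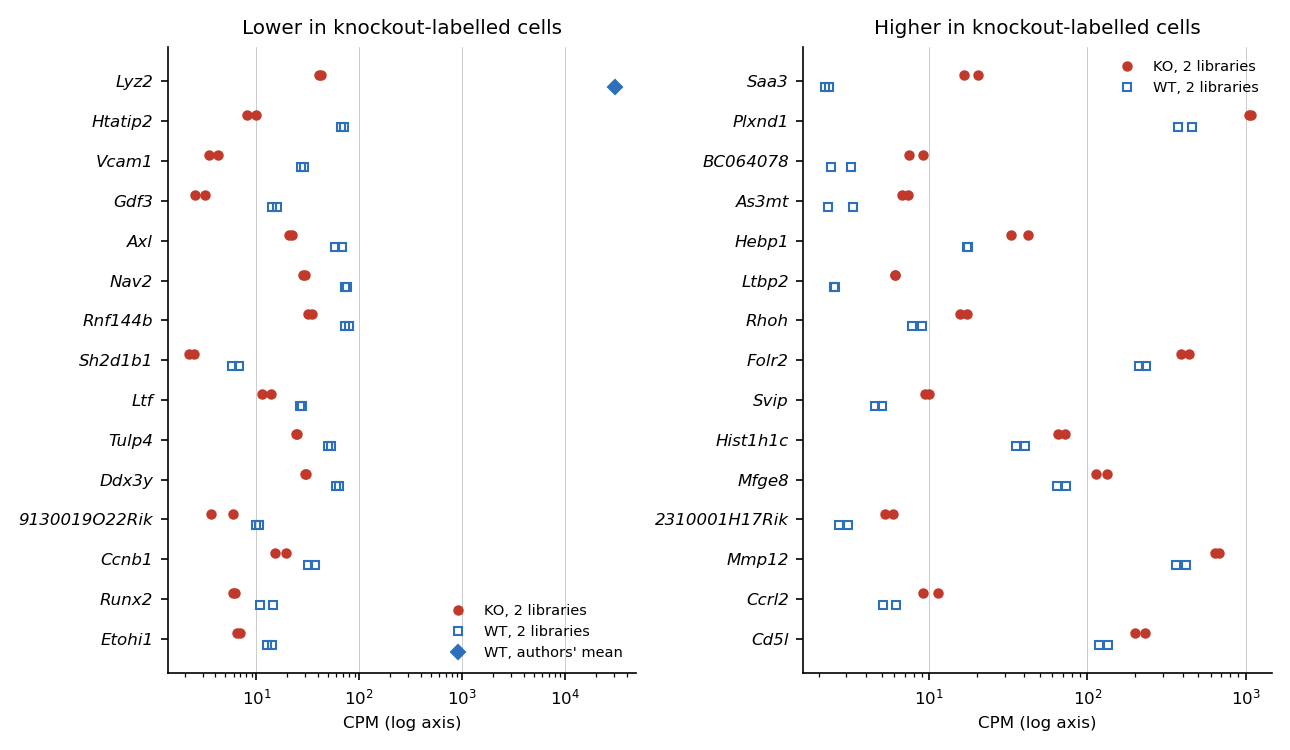
Level in each library (CPM, log axis) of the 15 genes with the lowest and the 15 with the highest ratio among those that passed, reached 5 CPM and are not counting-sensitive, with knockout-labelled libraries as red circles above wild-type libraries as blue squares. Lyz2 in wild-type cells is shown as the authors' mean of 30727 CPM, since its libraries could not be separated. The genes were chosen by their difference, so a gap between the 2 genotypes here is no separate support.

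Among the genes that rose, Saa3, an acute-phase serum amyloid A gene of macrophages, changed most. It read 20.4 and 16.6 CPM in knockout-labelled libraries and 2.19 and 2.32 CPM in wild-type libraries, a difference of 2.57 (SE 0.33, limma adjusted p = 0.00033). Saa3 also varies elsewhere in the series, as cells with no knockout label averaged 77.3 CPM after 24 h of vehicle.

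Plxnd1, a semaphorin receptor gene, read 1049 and 1076 CPM in knockout-labelled libraries and 375 and 456 CPM in wild-type libraries (1.36, SE 0.07, limma adjusted p = 1.2e-07). It lies 0.594 Mb from Pparg on chromosome 6 (115954811 to 115995339), next to the targeted locus. The fit with the kind term has no value for it, because some of its libraries could not be separated, but it passed with limma-voom (adjusted p = 7.3e-05). In the mixed groups, low and high libraries differed by only 0.07 for Plxnd1.

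Folr2, a folate receptor gene of tissue macrophages, had 389 and 440 CPM in knockout-labelled libraries and 234 and 213 CPM in wild-type libraries (0.89, SE 0.08, limma adjusted p = 2.2e-05). Mfge8 encodes a secreted protein that bridges dying cells to phagocytes. It read 113 and 133 CPM in knockout-labelled libraries and 64.6 and 73.8 CPM in wild-type libraries (0.82, SE 0.11, limma adjusted p = 0.0004). Hebp1, a haem-binding protein gene, had 42.0 and 32.8 CPM in knockout-labelled libraries and 17.4 and 17.7 CPM in wild-type libraries (1.04, SE 0.14, limma adjusted p = 0.0004). Hebp1 did not pass with limma-voom (adjusted p = 0.064). In the 3 genes every knockout-labelled library exceeded every wild-type library, which their choice by difference favours.

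BC064078 (1.29), the arsenite methyltransferase gene As3mt (1.09), Ltbp2 (1.01), which encodes a matrix protein, and the small GTPase gene Rhoh (0.90) rose as well. So did Svip (0.89), the linker histone gene Hist1h1c (0.83), the macrophage metalloelastase gene Mmp12 (0.77), 2310001H17Rik (0.76), the chemokine-binding receptor gene Ccrl2 (0.75) and Cd5l (0.75), whose secreted product is made by macrophages. Limma's adjusted p ranged from 6.7e-05 for Mmp12 to 0.030 for Ltbp2. Ltbp2 did not pass with any 1 of the 4 libraries left out (adjusted p = 0.092 to 0.17). Without the deeper wild-type library, Svip (0.062), 2310001H17Rik (0.084) and Ccrl2 (0.084) did not pass either, and Svip also missed without the shallower wild-type library (0.072) or the shallower knockout-labelled one (0.052). None of these 10 passed with the kind term, and of them Mmp12 passed with limma-voom.

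The promoters of 3 genes are shown because they carry the largest fall outside Lyz2, a rise close to the Pparg locus and the chemokine gene with the lowest adjusted p, and because PPARγ and RXR are known to bind repeats of the half-site AGGTCA. Each is given 5′ to 3′ on the gene's own strand from 250 bases before to 50 after the start (RefSeq, GRCm38.p6), with matches to AGGTCA on either strand in capitals.
Htatip2, chr7:49758856-49759155, plus strand: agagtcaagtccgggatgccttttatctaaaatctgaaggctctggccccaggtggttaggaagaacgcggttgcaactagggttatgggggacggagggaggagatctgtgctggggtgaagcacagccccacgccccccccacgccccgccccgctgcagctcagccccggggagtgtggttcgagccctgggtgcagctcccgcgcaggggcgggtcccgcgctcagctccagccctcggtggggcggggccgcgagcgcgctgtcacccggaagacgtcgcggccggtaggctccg
Plxnd1, chr6:115994956-115995255, minus strand: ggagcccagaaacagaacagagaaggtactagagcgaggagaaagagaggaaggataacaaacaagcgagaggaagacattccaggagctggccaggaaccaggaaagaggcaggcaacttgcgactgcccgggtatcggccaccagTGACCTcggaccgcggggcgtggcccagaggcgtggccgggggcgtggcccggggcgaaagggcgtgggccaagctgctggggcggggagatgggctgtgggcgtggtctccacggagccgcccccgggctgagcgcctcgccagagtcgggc
Ccl6, chr11:83593038-83593337, minus strand: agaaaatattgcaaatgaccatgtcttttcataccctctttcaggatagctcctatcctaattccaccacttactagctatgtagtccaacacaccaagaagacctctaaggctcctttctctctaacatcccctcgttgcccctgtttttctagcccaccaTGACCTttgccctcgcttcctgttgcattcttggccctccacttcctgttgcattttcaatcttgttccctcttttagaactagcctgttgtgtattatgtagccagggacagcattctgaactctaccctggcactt

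Plxnd1 and Ccl6 hold 1 exact half-site each, which begins 103 and 88 bases before the start. Htatip2 holds none in this window or in that of its other promoter. In Ccl6 the half-site is followed, after 1 base, by a stretch in the same orientation that differs from a half-site by 1 base. The Ccl6 promoter thus holds a direct repeat with 1 mismatch. Of all 32851 promoters of this length, 5340 (16.3%) hold a half-site and 13 hold the direct repeat AGGTCANAGGTCA. Of the 15 lowest genes 13 had a promoter entry, and 5 of their 17 promoters held a half-site. Of the 15 highest 13 had an entry, and 3 of their 19 promoters held one. No promoter of either set held the full repeat. Only exact matches were counted, and how many other promoters hold a repeat with a mismatch was not tested. A match describes the sequence and is not evidence of binding.

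The canonical PPARγ target genes that passed went both ways. Of 16 canonical PPARγ target genes that could be compared, 2 fell and 1 rose, with a list median of 0.02, the same as over all genes (0.02), of which 4.83% fell and 6.54% rose. With the kind term or limma-voom 0 of these targets passed. Angptl4, a secreted inhibitor of lipoprotein lipase, read 0.913 and 0.583 CPM in knockout-labelled libraries and 3.03 and 1.99 CPM in wild-type libraries (-0.99, limma adjusted p = 0.011). Mgll, the monoacylglycerol lipase gene, read 5.02 and 4.31 CPM in knockout-labelled libraries and 9.08 and 8.83 CPM in wild-type libraries (-0.82, limma adjusted p = 0.0032). Pltp, a phospholipid transfer protein gene, rose (0.40, limma adjusted p = 0.018). Fabp4, the fatty acid-binding protein gene often used as a PPARγ readout, differed by -0.37 without passing, and Cd36 (0.01), Lpl (0.02) and Plin2 (-0.19) did not pass either. The calls for Angptl4 and Pltp were lost without the deeper wild-type library or the shallower knockout-labelled one.

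The counts in the gene lists described from here on stand beside 6.54% that rose and 4.83% that fell over all genes that are not counting-sensitive. These lists lost most calls in the other fits. With the kind term, Ccl6 and Mfge8 rose, Axl fell and no other member that is not counting-sensitive passed, and limma-voom called 2 chemokine ligands, 2 clearance genes and 3 matrix genes higher and 1 macrophage identity gene lower. Without group weights 0 to 3 genes of a list passed in either direction.

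Of 23 genes for PPAR and RXR receptors and their cofactors, 3 rose and 2 fell (median -0.08). Rxra (0.23) and Rxrb (0.28), which encode dimer partners of PPARγ, and Nr1h2 (0.31), the gene of the oxysterol receptor LXRβ, rose. Nr1h3, the gene of LXRα, had 10.04 and 9.56 CPM in knockout-labelled libraries and 14.8 and 15.7 CPM in wild-type libraries (-0.59, SE 0.16, limma adjusted p = 0.022), and the corepressor-complex gene Tbl1xr1 fell by 0.32. With 1 library left out, the calls in this list numbered 0 to 2, fewest without the deeper wild-type library.

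Most sterol synthesis genes lay below 0. Of 19 sterol synthesis genes, 7 fell and none rose (median -0.24), and 0 passed with the kind term or limma-voom and 1 without weights. Among them were Hmgcs1 (-0.56) and Fdft1 (-0.58), enzymes of the mevalonate and squalene steps, and Insig1 (-0.55), a sterol-sensing brake on the pathway. Hmgcs1 read 44.5 CPM on average in knockout-labelled libraries and 66.0 CPM in wild-type libraries. Of 16 genes of cholesterol efflux and LXR targets, 5 fell and 2 rose (median 0.02), with the exporter gene Abcg1 at 50.7 CPM in both knockout-labelled libraries and at 65.2 and 73.9 CPM in wild-type libraries (-0.44, limma adjusted p = 0.0015). The exporter gene Abca1 (0.02) did not pass. The 7 calls in sterol synthesis became 4 and 3 without the deeper and the shallower wild-type library, and 5 and 2 without the deeper and the shallower knockout-labelled library. The 5 falls in the efflux list became 3, 1, 4 and 1 in the same order. In fatty acid oxidation 0 of 19 genes passed (median 0.05).

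Most chemokine ligand genes lay above 0. Of 15, 7 rose and none fell (median 0.43), and 5 or 6 passed with any 1 library left out, but 1 with the kind term, 2 with limma-voom and 3 without weights. Of the 15 genes, 14 lay above 0, and 12 of 13 with the kind term. Ccl6 had 337 and 345 CPM in knockout-labelled libraries and 211 and 206 CPM in wild-type libraries (0.71, SE 0.06, limma adjusted p = 2.2e-05), and it also passed with the kind term (adjusted p = 0.047). Pf4, the platelet factor chemokine that macrophages also make, read 1531 and 1457 CPM in knockout-labelled libraries and 908 and 958 CPM in wild-type libraries (0.68). Ccl4 (0.70), Ccl7 (0.68), Ccl2 (0.44) and Ccl3 (0.43), ligands that attract monocytes, and Ccl5 (1.29) rose too. Ccl5 did not reach the 5 CPM asked of the leading genes. The interferon-induced Cxcl10 was lower at -0.79 but did not pass. Among 12 receptors, Ccrl2 and Cxcr3 rose and Ccr2, the receptor for Ccl2 and Ccl7, fell (-0.55, limma adjusted p = 0.0017).

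Genes for the clearance of dying cells moved both ways. Of 16, 5 rose and 2 fell (median 0.12). With the kind term, which has values for 8 of them, 2 lay above and 6 below 0 (median -0.12). The complement genes C1qa (0.59), C1qb (0.39) and C1qc (0.40) rose, and C1qa read 1806 and 1879 CPM in knockout-labelled libraries and 1152 and 1298 CPM in wild-type libraries. Gas6, the ligand of Axl, rose (0.40) with Mfge8 while its receptor gene Axl fell, and Mertk, the related receptor gene, differed by 0.20 without passing. Of 28 matrix remodelling genes 8 rose and 2 fell (median 0.03), including Mmp12, Plau (0.57), which encodes urokinase, and Timp2 (0.46). With any 1 library left out, 3 or 4 of these genes rose. The lysosomal protease genes Ctsb (0.37) and Ctsd (0.41) and the macrophage glycoprotein gene Gpnmb (0.40) rose and also passed with limma-voom. They were picked because they passed there. Ctsb and Ctsd entered the limma-trend fit as single averaged values in both groups. For limma-voom, their unresolved values were filled with the pair of counts most alike between the 2 libraries. That shrinks the spread of Ctsb and Ctsd, so their pass with limma-voom is no support. With 1 library left out, none of Ctsb, Ctsd and Gpnmb passed in limma in every such fit. For Ctsb and Ctsd the mean of both libraries stayed in those fits, with less weight. The fits therefore do not show what 1 library contributes to these genes.

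Of 22 macrophage identity genes, 7 rose and 4 fell (median 0.11). The rises became 3 and 5 without the deeper and the shallower wild-type library, and 5 and 4 without the deeper and the shallower knockout-labelled library. With the kind term, which has values for 14 of them, none rose, 1 fell and the median was -0.08. Cd68 (0.40), Cebpa (0.40), Cd14 (0.35) and Emr1 (0.32) rose, and next to Lyz2, Axl and Ccr2 the sialoadhesin gene Siglec1 fell (-0.48). Of 20 IL-4 marker genes, 6 rose and 3 fell (median 0.13). Only 1 rose without the deeper wild-type library, and with the kind term 0 of 16 passed (median 0.02). Chi3l3, a chitinase-like protein gene, had the lowest value (-0.81, limma adjusted p = 0.0005), though reads of its close paralogs make its level uncertain, and the receptor gene Il4ra rose (0.34, limma adjusted p = 0.0022, and up to 0.060 with 1 library left out). Of 33 interferon-stimulated genes, 2 rose and 4 fell (median -0.09), with Irf7 highest (0.58) and Ifi203 lowest (-0.58). The share that rose was near the 6.54% over all genes, of which 4.83% fell. With the kind term 0 of the 33 passed, and 7 lay above and 26 below 0 (median -0.34).

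Of 33 cell cycle genes, 6 fell and 1 rose (median -0.08). With the kind term, which has values for 32 of them, 16 lay above and 16 below 0 (median 0.02). In that fit and with limma-voom 0 passed. Mki67, a marker of dividing cells, differed by -0.73, Bub1 by -0.51, Kif11 by -0.46 and Top2a by -0.44, and the cell cycle inhibitor gene Cdkn1a rose (0.39). Of these Ccnb1 and Mki67 were lowest, and the replication helicase genes Mcm2 to Mcm6 did not pass. The falls numbered 1 without the deeper wild-type library, 6 without the shallower one, and 5 and 2 without the deeper and the shallower knockout-labelled library. The immediate-early list had 6 of 20 genes higher and none lower (median 0.20), led by Ier3 (0.45), and 1, 2, 6 and 1 genes passed with those libraries left out in the same order. Iron and haem genes had 5 of 13 higher (median 0.20), among them Hmox1, which encodes haem oxygenase (0.31), and 1 to 3 passed with 1 library left out. Of 10 neutrophil markers, 3 fell (Ltf, Ngp and S100a9) and Csf3r rose (median -0.41). The falls numbered 1 without either wild-type library or the deeper knockout-labelled one, 4 without the shallower knockout-labelled one, and 0 with the kind term, limma-voom or no weights. Summed over 17 such markers, the level was 226 and 246 CPM in knockout-labelled libraries and 270 and 273 CPM in wild-type libraries. The 10 B cell markers summed to 76.0 and 79.8 CPM in knockout-labelled libraries and 58.1 and 64.1 CPM in wild-type libraries. Most of that sum was Blnk, an adaptor gene, which rose (0.39, limma adjusted p = 0.018), while 4 of the 10 markers, Pax5 among them, were at 0 in both groups. The 13 T and NK cell markers summed to 14.8 and 14.9 CPM in knockout-labelled libraries and 10.7 and 14.6 CPM in wild-type libraries, nearly all of it Cd4, and 3 of them were at 0. No mast cell, basophil or eosinophil marker reached 1 CPM, and 7 of 14 were at 0. Of 12 erythroid and megakaryocyte markers 4 were at 0, and nearly all of their summed level was Pf4, given above. What other cells contribute to these values was not tested.

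**Figure D3:**
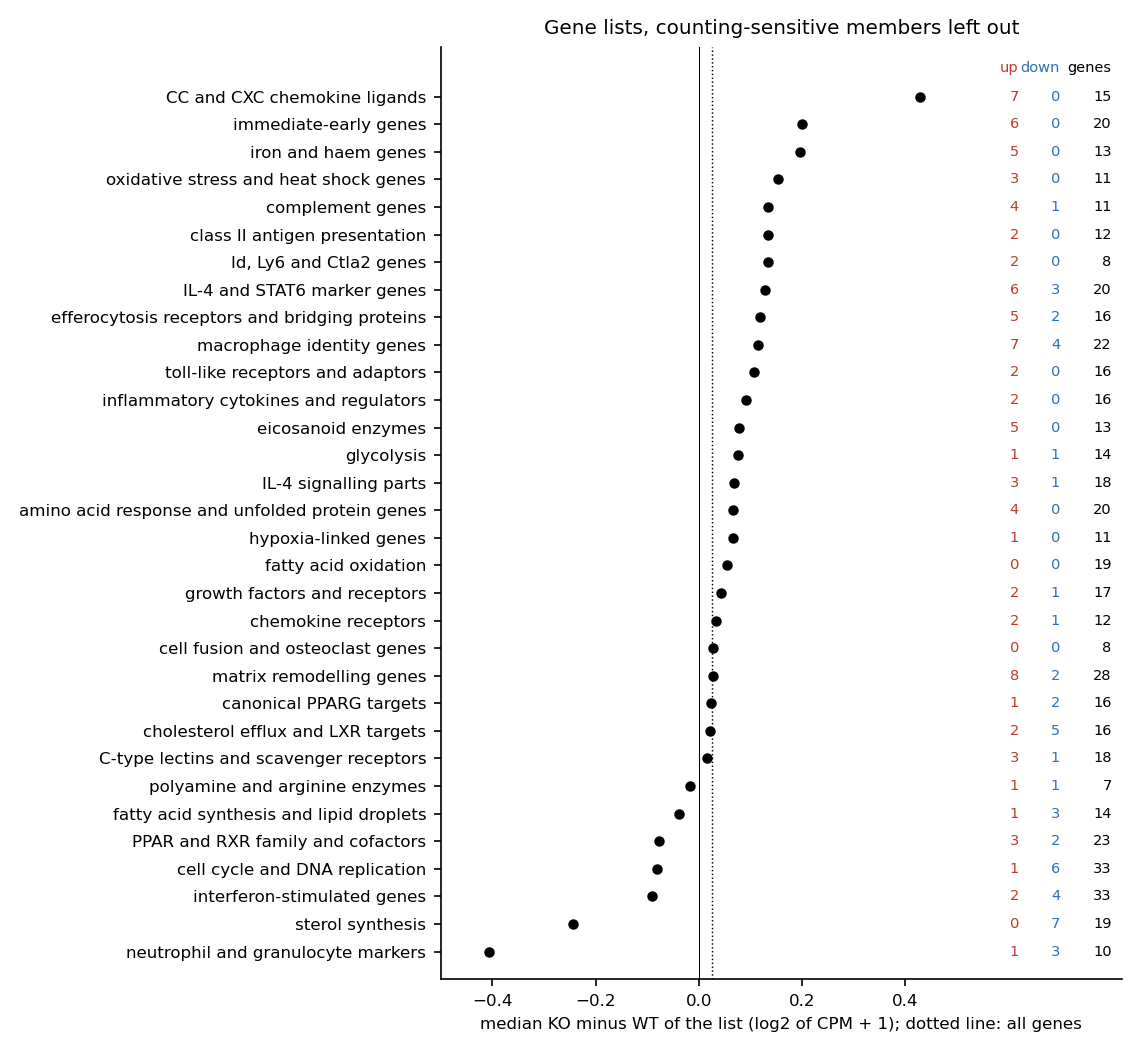
Median difference between knockout-labelled and wild-type unstimulated cells (log2 of CPM + 1) in each gene list with at least 6 genes compared, with the number of genes that rose (red), fell (blue) and were compared (black) at the right. The chemokine ligands stand highest at 0.43, and the neutrophil markers (-0.41) and sterol synthesis genes (-0.24) lowest.

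**Figure D4:**
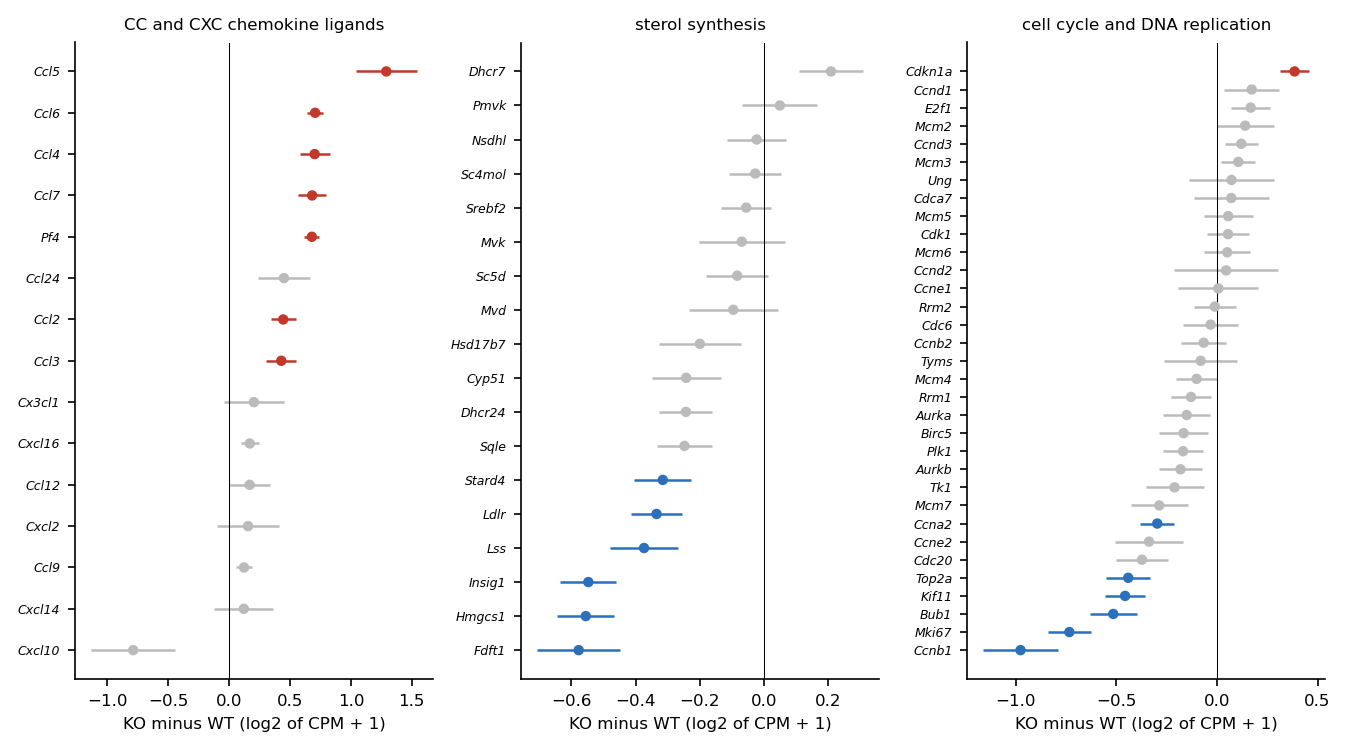
Difference of each gene in 3 lists (log2 of CPM + 1, point with 1 SE to either side), red where it rose, blue where it fell and grey where it did not pass. In the chemokine list 7 of 15 genes rose, in sterol synthesis 18 of the 19 genes are drawn and 6 of these fell, and in the cell cycle list 6 of 33 fell while Cdkn1a rose.

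The genotype difference of the leading genes was then read in the 3 other conditions, which use separate libraries: 3 h of IL-4, IL-4 pretreatment with washout, and pretreatment, washout and 3 h of IL-4. The 2 wild-type libraries of the last condition stand apart, with a median absolute log2 difference between them of 0.44, against 0.089 to 0.14 within the other 7 groups. Of the 15 lowest genes, 13 were lower in knockout-labelled cells in all 3, and of the 15 highest, 12 were higher in all 3. The exceptions were Rnf144b (0.13) and Etohi1 (0.25) among the lowest and Hebp1 (-0.15), Hist1h1c (-0.10) and Ltbp2 (-3.86) among the highest, each in the last condition. All knockout-labelled libraries are of the low kind, so these values share that feature. Htatip2 averaged 5.57, 9.57 and 5.76 CPM in knockout-labelled cells of those conditions, against 59.2, 65.7 and 71.0 CPM in wild-type cells. Vcam1 averaged 3.22, 3.87 and 2.19 CPM in knockout-labelled cells, against 18.8, 23.7 and 12.8 CPM in wild-type cells. Saa3 had 14.4, 41.5 and 32.6 CPM in knockout-labelled cells and 8.45, 3.51 and 5.13 CPM in wild-type cells. Ltbp2 went the other way in the last condition, with 0.815 and 0.399 CPM in knockout-labelled libraries and 118 and 3.51 CPM in the wild-type libraries, which differ widely from each other.

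Over all genes that are not counting-sensitive, 337 of the 697 that rose were higher, and 257 of the 515 that fell were lower, in all 3 other conditions. Among genes that did not pass, 898 of 5123 with a positive and 730 of 4328 with a negative difference kept their sign throughout. Without the last condition these counts were 564 and 403 among genes that passed, and 1991 and 1647 among those that did not. The difference between the unstimulated state and the mean of the other 3 conditions passed for 0 of 11280 genes (0%) in limma, with 648 at an unadjusted p under 0.05, and for 0 with limma-voom, with 296 at an unadjusted p under 0.05. Without the last condition it also passed for 0 genes in limma, with 586 at an unadjusted p under 0.05. The lowest adjusted p among the 30 leading genes was 0.42, for Plxnd1, whose difference was 1.36 here and 0.78, 0.65 and 1.03 in the other conditions.

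**Figure D5:**
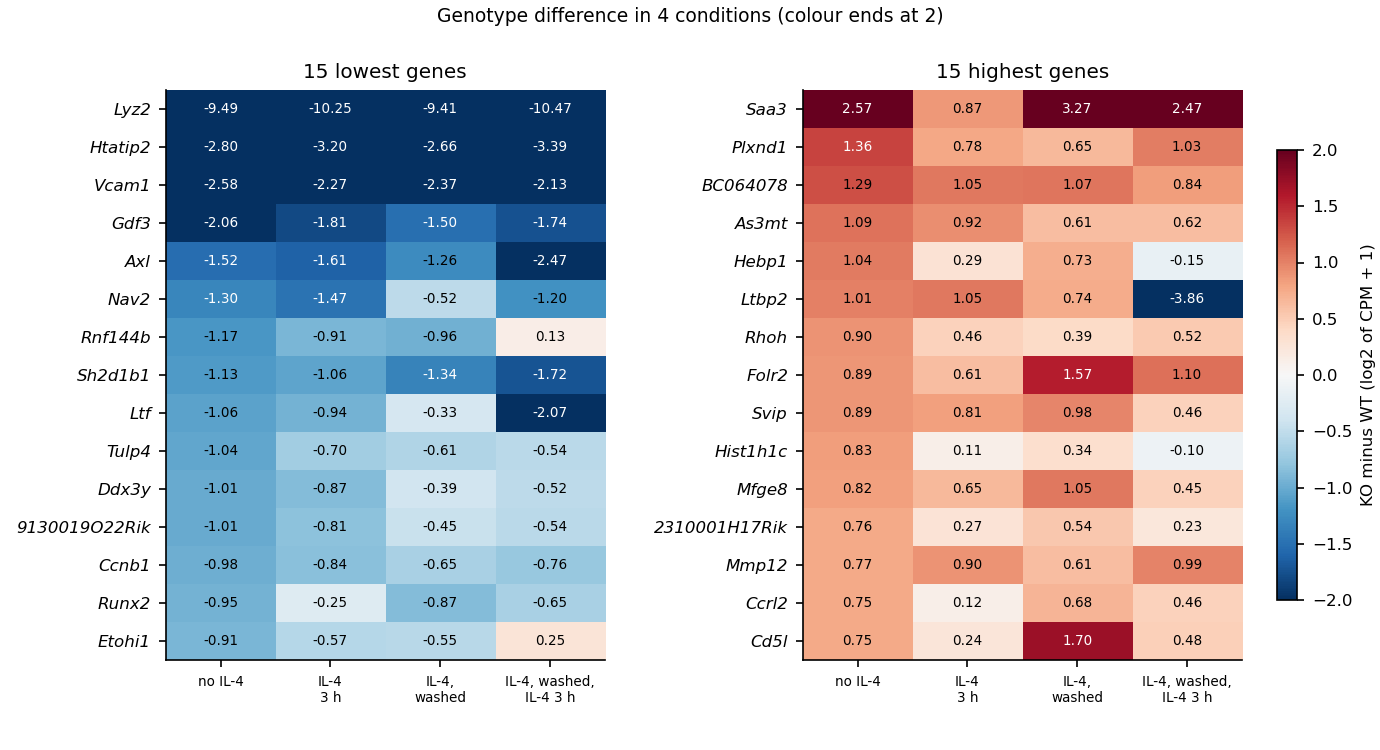
Difference between knockout-labelled and wild-type cells (log2 of CPM + 1, printed and coloured) for the 15 lowest and 15 highest genes in unstimulated cells (left column) and in the 3 IL-4 conditions. Htatip2, Vcam1, Gdf3 and Axl are at or below -1.26 in every column, Ltbp2 turns to -3.86 in the last one, and Lyz2 lies beyond the colour scale at -9.41 to -10.47.

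By position along the genome, 53 genes within 5 Mb of Pparg could be compared, of which 4 rose (7.55%) and 1 fell (1.89%). On the rest of chromosome 6, 8.68% rose and 5.42% fell, and on the other chromosomes 6.42% and 4.79%. The median absolute difference of the 53 genes was 0.19, against 0.15 on the rest of chromosome 6 and 0.14 elsewhere. Only Plxnd1 and 8430408G22Rik of these 53 differed by more than 1.5-fold (3.77%), and both rose. The share beyond 1.5-fold was 4.56% on the rest of chromosome 6 and 2.25% on the other chromosomes. 8430408G22Rik, 1.29 Mb from Pparg, read 3.38 and 3.26 CPM in knockout-labelled libraries and 0.104 and 0.442 CPM in wild-type libraries, whose values lie near the level of 3 reads (1.78, SE 0.25, limma adjusted p = 0.00058), and it passed with the kind term (adjusted p = 0.030). Within 5 Mb of Lyz2, 30 genes were compared, 3 rose, 1 fell and none differed by more than 1.5-fold.

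Of the 30 leading genes, 8 lie on chromosome 7 and 5 on chromosome 6, which hold 7.73% and 4.90% of the genes compared. Those on chromosome 6 are Gdf3, Plxnd1, BC064078, Hebp1 and 2310001H17Rik. On chromosome 7, Saa3 (46711998 to 46719615), Nav2 (48959063 to 49610090), Htatip2 and Svip (51997161 to 52006018) lie close together, with Nav2 and Htatip2 lower and Saa3 and Svip higher. This grouping was noticed after the values had been seen, and no test was made of it. The stretch is not the densest of its kind. In windows of 5 Mb, 4 of 47 genes differed by more than 1.5-fold at 45 to 50 Mb of chromosome 7, against 7 of 48 at 80 to 85 Mb of chromosome 11, where Ccl4, Ccl5, Ccl6 and Ccl7 lie, 5 of 30 at 105 to 110 Mb of chromosome 5 and 4 of 11 at 50 to 55 Mb of the X chromosome. Over all chromosomes other than chromosome 6 the share was 2.25%, against 4.47% on chromosome 6 and 5.57% on the X chromosome.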

How the data were processed

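Poly-A RNA was sequenced from 24 macrophage samples, of which 4 enter the comparison described here. The submitters' processing notes name Cufflinks 2.0.2, TopHat2 2.0.7 and the build mm10. The role of each is not given in the sources used here, nor is a strand setting. The authors deposited 1 averaged column per group, recorded here as signal, in CPM per the labels, for 23420 genes.

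From the deposited values, the step of each of the 2 libraries behind a column was estimated and each value was solved for 2 whole read counts. For KO_ctrl_0h a single solution existed for 13907 of 13937 nonzero values, 22 more had just 1 pair of libraries within 2-fold of each other, and 8 stayed unresolved. For WT_ctrl_0h these numbers were 14234 of 14249, 11 and 4. The separation and the fit were tested on simulated data. No replicate number could be tied to a library.

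The main test was limma-trend 3.58.1 (R 4.3.3) on log2(CPM + 1) of 16 libraries, with 1 coefficient and 1 variance weight per group, genes of at least 1 CPM in either column and Benjamini-Hochberg adjustment at 0.05 over 11280 genes. Where a value was unresolved, the column mean was used once, with weight 2. In limma-voom such a value was filled with the pair of counts most alike between the 2 libraries, which understates its spread. The fit with counting kind as a term leaves out genes with an unresolved value. Counting-sensitive genes were defined by 50-base words of GENCODE transcripts and by 4 mixed groups. That definition, and the values set within the low kind, were chosen after seeing the data. Coordinates and promoters are from RefSeq (GRCm38.p6, which is mm10), matched by symbol, or by an older symbol where that was unique.

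The members, the gene lists and the named genes were chosen with earlier results of these data known. Named are the 15 highest and 15 lowest genes by ratio among those that passed, reached 5 CPM and are not counting-sensitive, up to 4 called members of a list, and a few that the text marks as picked otherwise. Alternatives were pseudocounts of 0.25 and 4 CPM, filters, weights, rescaling, limma-voom, kind as a term, and leaving out libraries or, added after seeing the data, 1 condition. A few list members are not reported here by name.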

Additional observations from a re-analysis of the deposited data

How the results depend on the processing

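No paired analysis was possible because the separated libraries carry no replicate numbers. All counts here are of genes with an adjusted p under 0.05 in limma unless a fold is named. The total of 1758 changed by less than 1.5 times under other pseudocounts, filters, rescaling, the 4 libraries alone and without counting-sensitive genes. It was 366 without group weights, 40 with limma-voom and 15 with counting kind as a term. Without 1 library it was 609 to 1192, lowest without the deeper wild-type library. Outside counting-sensitive genes the 1212 calls became 700 with no filter, 80 without weights, 20 with limma-voom, 14 with the kind term and 247 to 711 without 1 library, lowest without the deeper wild-type library. Rescaling by the median ratio turned the split from 697 higher and 515 lower to 499 higher and 569 lower. The 439 genes beyond 2-fold became 779 beyond 1.5-fold, 33 without counting-sensitive genes, 57 with the counting difference of the mixed groups subtracted (a setting added after seeing the data), and 423 to 458 without 1 library. The test of the unstimulated state against the other conditions gave 0 calls, and 1 with the kind term and 1 without the shallower knockout-labelled library. Leaving out the pretreated and restimulated condition, added after seeing the data, gave 1682 calls, 1151 of them outside counting-sensitive genes, and 0 for that test. Pparg never passed (difference -0.36 to -0.04). The 30 leading genes kept their direction under every setting that could be fitted. Of them 12 did not pass without weights, 20 with limma-voom, 18 of 28 with the kind term, and 1 to 5 without 1 library. Causes were not tested. With 2 libraries a group, a missing call does not show that a gene is unaffected, and 3 reads, at 0.274 to 0.350 CPM, limit the lowest genes.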
